A study of Mus musculus with 24 samples.

Results

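The Ras association domain family comprises scaffold proteins that carry a domain able to bind GTP-loaded Ras or Rap GTPases. The genes *Rassf1* to *Rassf8* were selected by name from a table of normalized read counts, and all 8 of the 8 names had a row among its 18762 genes. The family was chosen from results of these same mice, because *Rassf4* was known to be lower in the old ones. Differences between old and young mice are therefore given below as a description, and no test of the members on this contrast is read as evidence. *Rassf9* and *Rassf10*, 2 relatives outside this selection, are given for comparison.

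The study compared young with old mice by sequencing RNA of LSK-SLAM cells, which are sorted from bone marrow to enrich hematopoietic stem cells (HSCs). All animals were C57BL/6 and of WT genotype without treatment named in the labels, 5 young mice of 4 to 5 months and 7 old mice of 20 to 22 months per the labels, while the study's text gives higher ages for both groups. The labels list 24 entries, a pair per mouse, and each of the 12 mice was counted once. Libraries were made with the TotalScript kit from picogram amounts of ribosomal-depleted RNA of sorted cells, so that the values are averages over a bulk fraction. A lower value in such a bulk sample can come from fewer cells of a type or from less RNA per cell, and these cannot be told apart here.

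Each mouse is also labelled A or B, letters whose meaning the sources used here do not give. The label A belongs to 2 young and 4 old mice and the label B to 3 of each age. Reads on genes numbered 2049091 to 5118507 in young and 861047 to 5004774 in old mice. All mice of letter A (861047 to 3106243 reads) were shallower than all of letter B (3233516 to 5118507 reads), so depth and letter cannot be told apart. The 10 markers of the LSK-SLAM gate all had reads in each mouse, and their summed level ranged from 1863 to 6800 normalized read counts. In old mice the sum was 1863 to 4969 with letter A and 6009 to 6800 with letter B, without overlap. In young mice it was 3476 to 4939 with letter A and 4742 to 6082 with letter B. *Cd48*, whose protein is absent from the gated cells, ranged from 0.583 to 11.8.

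By protein architecture the family falls into a pair of branches. RASSF1 to RASSF6 carry the Ras association domain towards the C terminus, followed by a SARAH domain through which they bind the MST kinases of the Hippo pathway. RASSF7 to RASSF10 carry the Ras association domain at the N terminus and lack the SARAH domain. In blood, RASSF5, also called RAPL or NORE1, is best known for linking the GTPase RAP1 to integrins and to MST1 in lymphocyte adhesion and trafficking. Several RASSF genes, RASSF1 first among them, are known in tumours for silencing through methylation of CG dinucleotides in the promoter.

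For this reason the CG content upstream of the start sites was examined in the RefSeq promoter table of the mouse build GRCm38.p6. Of the 10 family names, 6 matched, with 7 promoters, as *Rassf1* has 2 start sites there. In the 250 bases before the start, the 2 *Rassf1* windows held 23 and 24 CG dinucleotides, *Rassf7* 20, *Rassf4* 13, *Rassf6* 10, *Rassf2* 8 and *Rassf5* 4. Exons annotated in GENCODE covered 116 of these bases for *Rassf4*, 130 for *Rassf6* and part of both *Rassf1* windows. The counts include these exonic bases. The median over 32841 promoters of this length was 6, with quartiles at 2 and 16. At least as many CG dinucleotides as in the first *Rassf1* window were found in 13.3% of all promoters. At least as many as in *Rassf4* were found in 31.5% and at least as many as in *Rassf5* in 62.2%. The GC box GGGCGG, searched on both strands and overlapping the CG count, occurred in 5 of the 7 RASSF windows and in 32.7% of all promoters. In *Rassf4* its matches lay in the exonic part of the window. These are matches of letters, and methylation was not measured in these mice.

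Shown here are the parts of these windows that lie outside exons annotated in GENCODE and, for *Rassf2*, also before the start of the gene in RefSeq, for *Rassf4*, the member with the largest difference between the ages, and for *Rassf2* and *Rassf5*, the members with the highest level per length. All 3 genes lie on the minus strand, and the sequences run 5′ to 3′ on that strand with each CG dinucleotide in capitals. The *Rassf5* window lies before a start site inside the gene. The first, for *Rassf4*, is chr6:116673953-116674086, the second, for *Rassf2*, chr2:132030417-132030574, and the third, for *Rassf5*, chr1:131200186-131200435.
Rassf4: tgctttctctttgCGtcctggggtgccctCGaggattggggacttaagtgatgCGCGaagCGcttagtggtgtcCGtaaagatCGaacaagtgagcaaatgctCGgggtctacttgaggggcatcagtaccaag
Rassf2: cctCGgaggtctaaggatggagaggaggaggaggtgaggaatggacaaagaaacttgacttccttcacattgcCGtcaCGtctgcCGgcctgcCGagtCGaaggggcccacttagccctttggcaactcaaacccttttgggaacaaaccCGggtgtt
Rassf5: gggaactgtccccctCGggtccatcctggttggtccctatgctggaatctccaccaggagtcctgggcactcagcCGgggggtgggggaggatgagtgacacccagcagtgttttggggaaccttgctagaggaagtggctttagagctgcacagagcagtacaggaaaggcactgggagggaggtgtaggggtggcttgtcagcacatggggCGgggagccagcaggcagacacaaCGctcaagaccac
The stretches hold 8 CG dinucleotides in the 134 bases shown for *Rassf4*, 7 in the 158 bases shown for *Rassf2* and 4 in the 250 bases shown for *Rassf5*.

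All 8 members reached the mean of 10 normalized read counts that was required for a test, as did 12354 genes in all. To set genes beside each other, normalized read counts were divided by the exonic length in kilobases. This length merges the exons of all annotated transcripts, 11993 bases for *Rassf2* and 3997 for *Rassf5*. Which transcripts the cells used was not examined. Before the division *Rassf2* lay above *Rassf5* in each mouse, with means of 240 and 162 normalized read counts. *Rassf4* also had a higher mean than *Rassf3*, 52.4 against 45.1. The order below therefore holds for this length only. *Rassf5* stood highest with 40.6 ± 11.7 normalized read counts per kilobase (SD, n = 12), above 94.3% of the genes tested. *Rassf2*, whose product binds MST kinases, followed with 20.0 ± 4.34 (SD, n = 12), and *Rassf5* was above it in 12 of 12 mice. *Rassf3*, a paralogue of *Rassf1* and *Rassf5* in the SARAH branch, had 11.8 ± 2.54 (SD, n = 12), and lay below *Rassf2* in 11 of 12 mice. Per length, these 3 genes therefore had an order that nearly every mouse shared.

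The other 5 members lay close together between 4.70 and 6.12 normalized read counts per kilobase. *Rassf7*, an N-terminal member with roles at the mitotic spindle, came next at 6.12 ± 1.92 (SD, n = 12), below *Rassf3* in 11 of 12 mice. It was above *Rassf8* (6.06 ± 1.91, SD, n = 12) in 7 of 12 mice, and *Rassf8* was above *Rassf4* (5.69 ± 2.12, SD, n = 12) in 5. *Rassf4* was above *Rassf6* (4.99 ± 1.61, SD, n = 12) in 7 mice, and *Rassf6* was above *Rassf1* (4.70 ± 1.16, SD, n = 12) in 8. Neighbours from *Rassf7* to *Rassf1* thus did not differ beyond the spread between mice. The relatives outside the selection were lower still, *Rassf10* at 3.77 ± 1.84 and *Rassf9* at 2.24 ± 1.70 (SD, n = 12).

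**Figure D1:**
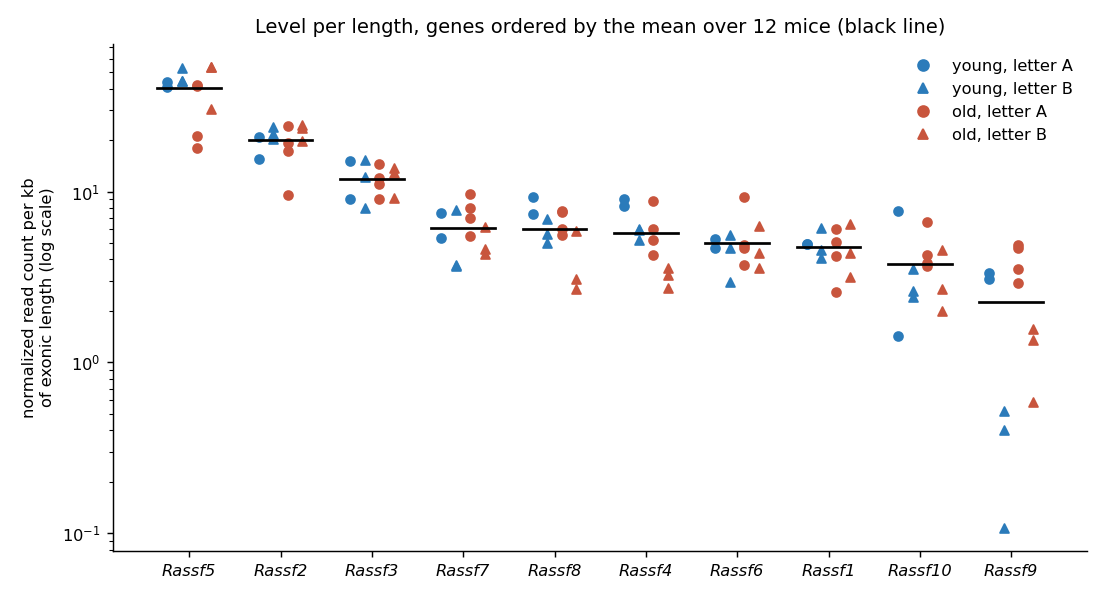
Normalized read counts per kilobase of exonic length (log scale) for each RASSF gene, 1 point per mouse, with the genes ordered by the mean over 12 mice (black line). *Rassf5*, *Rassf2* and *Rassf3* stand above the rest, *Rassf7* to *Rassf1* overlap, and *Rassf9* separates the mice of letter A (circles) from those of letter B (triangles).

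Summed over the 8 members, the level was 107 ± 6.17 normalized read counts per kilobase in young (SD, n = 5) and 95.3 ± 15.7 in old mice (SD, n = 7). *Rassf5* made up 39.8% ± 8.05 of this sum (SD, n = 12) and *Rassf2* 19.9% ± 3.244 (SD, n = 12). The share of *Rassf4* was 6.47% ± 1.59 in young (SD, n = 5) and 5.47% ± 3.55 in old mice (SD, n = 7). *Rassf5* and *Rassf2* led the sum at both ages.

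The reads behind these values were unequally secure. *Rassf1* (ENSMUSG00000010067, chromosome 9, 107551555 to 107562267, plus strand) shares 42.7% of its exonic bases with *Gm9917*, an antisense gene on the opposite strand. Whether the counting used strand is not given in the sources used here, so that its reads are uncertain. Gene counts also merge its 2 start sites. *Rassf5* (ENSMUSG00000026430, chromosome 1, 131176410 to 131245258, minus strand) shares 1.95% of its exonic bases with *Eif2d*. *Rassf4* (ENSMUSG00000042129, chromosome 6, 116633008 to 116673952, minus strand) and *Rassf8* (ENSMUSG00000030259, chromosome 6, 145746748 to 145821079, plus strand) share none with another gene. No stretch of 50 bases occurs in transcripts of more than 1 RASSF gene. Recovered reads per mouse ranged from 145 to 1467 for *Rassf2*, from 32 to 283 for *Rassf4* and from 17 to 57 for *Rassf7*.

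*Rassf4*, a SARAH branch member, was the gene for which the family was chosen. In young mice its normalized read counts were 83.4 and 75.5 with letter A, and 54.5, 55.5 and 47.6 with letter B. In old mice they were 47.9, 81.3, 55.7 and 39.4 with letter A, and 29.9, 25.1 and 32.9 with letter B. The ages overlapped, as old mice 1, 5 and 6 lay above at least the lowest young mouse, while 4 of 7 old mice lay below all young mice. Young mice had a mean of 63.3 ± 15.3 (SD, n = 5) and old mice one of 44.6 ± 19.3 (SD, n = 7), a ratio of 0.704.

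On the log2(value + 1) scale the old minus young difference of *Rassf4* was -0.56 (SE 0.27, limma). It was -0.54 (SE 0.36) among mice of letter A and -0.83 (SE 0.28) among mice of letter B. Within letter B every old mouse lay below every young mouse, as was so for 6.18% of the 12354 genes in this direction. Within letter A, where 5.31% of genes had this separation, *Rassf4* overlapped. Over all mice 0.17% of genes were lower in old mice without overlap, and no RASSF gene was among them. Without any single mouse the difference stayed between -0.72 and -0.45.

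*Rassf8*, an N-terminal branch member linked to cell junctions, had the third lowest difference. Its normalized read counts in young mice were 41.1 and 51.9 with letter A, and 31.2, 27.9 and 38.2 with letter B. In old mice they were 42.0, 30.8, 33.5 and 43.0 with letter A, and 32.6, 15.0 and 17.1 with letter B. Old mice 3 and 4, both of letter B, lay below all others, and the remaining old mice lay within the range of the young. The old minus young log2 difference was -0.36 (SE 0.29), with -0.31 (SE 0.38) in letter A and -0.63 (SE 0.37) in letter B.

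*Rassf5* was 176, 164, 211, 177 and 178 normalized read counts in the 5 young mice. In the old mice it ran from 71.8 to 214 with a median of 167. The young mice lay within a narrow band, whereas 3 old mice fell below it and 2 above it. The lowest values, 71.8 and 84.9, belonged to old mice 5 and 7, which had the fewest reads. The log2 difference was -0.39 (SE 0.26) over all mice, -0.57 (SE 0.37) in letter A and -0.09 (SE 0.19) in letter B.

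*Rassf2* ranged from 185 to 288 normalized read counts in young mice and from 114 to 294 in old mice. Again old mouse 5 was lowest, and the other 6 old mice lay between 208 and 294. Its log2 difference of -0.09 (SE 0.23) was smaller than its standard error. The remaining SARAH branch members overlapped widely between the ages, with differences of -0.16 (SE 0.26) for *Rassf1*, 0.00 (SE 0.22) for *Rassf3* and 0.13 (SE 0.30) for *Rassf6*. *Rassf6* was 39.4 in old mouse 7, on 32 reads, and at most 26.6 in the other mice. *Rassf7* had a difference of 0.21 (SE 0.38), with 7.85 to 16.7 normalized read counts in young and 9.33 to 20.9 in old mice.

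Of the 8 members, 0 had an adjusted p-value under 0.05 between old and young mice in limma, edgeR or DESeq2. An unadjusted limma p under 0.05 was found for 1 member, *Rassf4*, the gene behind the choice, and for 3.95% of all genes tested. Over all genes tested, limma called 13, or 0.105%. As the members were chosen on this contrast, nothing is read from these counts. The differences of the 8 members had a median of -0.13, with 3 above and 5 below 0, and the median over all genes tested was -0.02. Outside the selection, *Rassf9* had an old minus young difference of 1.29 (SE 0.69), which was 0.28 (SE 0.44) in letter A and 1.47 (SE 0.81) in letter B. *Rassf10* had 0.27 (SE 0.45).

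**Figure D2:**
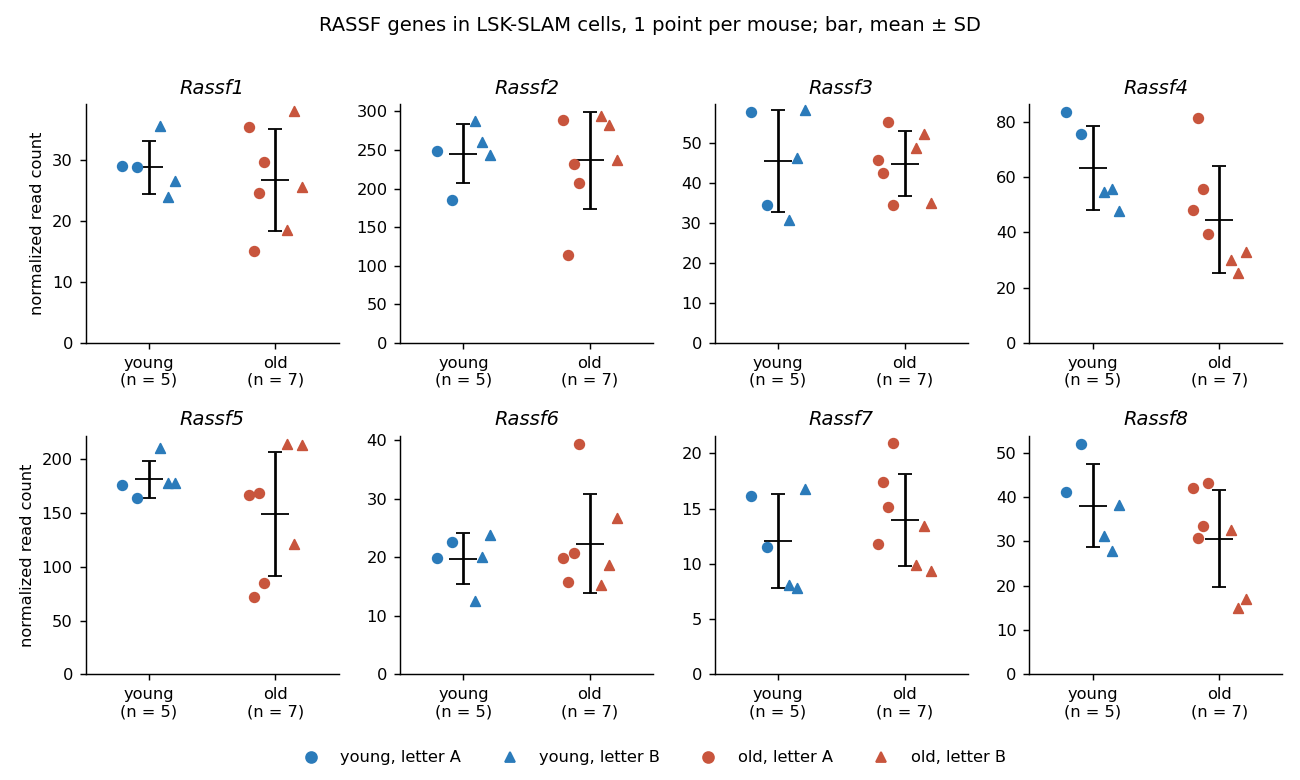
Normalized read counts of *Rassf1* to *Rassf8* in 5 young (blue) and 7 old (red) mice, with circles for letter A, triangles for letter B, and mean ± SD as bars. *Rassf4* is lower in old than in young mice of letter B, from 25.1 to 32.9 against 47.6 to 55.5, while the other panels overlap.

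Whether the RASSF genes differed between the letters was not used to choose them, and was tested with age as a covariate in limma. *Rassf4* fell from 63.9 ± 18.7 normalized read counts with letter A (SD, n = 6) to 40.9 ± 13.3 with letter B (SD, n = 6). The log2 difference of B minus A was -0.75 (SE 0.21, limma adjusted p = 0.00723). Mice of letter B lay below those of letter A within the young and within the old, with mean ratios of 0.662 and 0.522. The share of all genes that separate the letters in this way was not computed. Nothing is therefore read from such separation, here or for the genes below. This result held under each alternative and without each mouse, at differences between -0.83 and -0.63.

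*Rassf8* was also lower, with 40.4 ± 7.52 in letter A (SD, n = 6) and 27.0 ± 9.13 in letter B (SD, n = 6). Its log2 difference was -0.70 (SE 0.24, limma adjusted p = 0.0267). The letters did not overlap within the young mice and overlapped within the old. Leaving out young mouse 2, old mouse 3, old mouse 4 or old mouse 7 raised the limma adjusted p above 0.05, to at most 0.0796. Rescaling by median ratios did so as well (difference -0.58, limma adjusted p = 0.0549).

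*Rassf2* and *Rassf5*, the most abundant members, pointed the other way without passing the test. *Rassf2* was 213 ± 60.0 in letter A (SD, n = 6) and 268 ± 23.98 in letter B (SD, n = 6), a log2 difference of 0.37 (SE 0.20, limma adjusted p = 0.134). *Rassf5* was 139 ± 47.0 (SD, n = 6) and 186 ± 35.9 (SD, n = 6), a log2 difference of 0.43 (SE 0.22, limma adjusted p = 0.118). Both passed after rescaling by median ratios, at 0.50 (limma adjusted p = 0.0431) and 0.55 (limma adjusted p = 0.0416). That rescaling moved the median letter difference of all genes from -0.09 to 0.03. It also moved the calls from 1301 higher and 3161 lower to 2267 higher and 2888 lower in letter B, so that the balance of directions depends on the scaling.

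*Rassf1* (0.03, SE 0.27), *Rassf3* (0.00, SE 0.22), *Rassf6* (-0.20, SE 0.30) and *Rassf7* (-0.47, SE 0.36) did not pass between the letters. In all, 2 of 8 members were called and both were lower in letter B. The shares over all genes were 36.1% called in either direction and 25.6% called lower, so the members' counts lie near this background. Their median difference was -0.10, and that of all genes tested was -0.09. No member was called for an age difference that differed between the letters (limma interaction, 0 of 8 with an adjusted p under 0.05). The unadjusted limma interaction p of *Rassf1* to *Rassf8* was 0.284 or more, and 0.0162% of all genes were called. For *Rassf5* the interaction was 0.48 (SE 0.44), so that differences of this size could be missed.

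*Rassf9*, outside the selection, separated the letters most clearly within the family. With letter A it was 22.4 and 24.5 in young and 25.8, 35.5, 21.2 and 34.4 normalized read counts in old mice. With letter B it was 2.94, 0.785 and 3.82 in young and 4.30, 11.4 and 9.92 in old mice. Every mouse of letter B lay below every mouse of letter A, with a log2 difference of -2.22 (SE 0.42, limma adjusted p = 0.000485). The share of all genes without overlap between the letters was not computed, and 25.6% were called lower in letter B by limma. *Rassf10* had -0.43 (SE 0.41) and overlapped.

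Markers of other cells were also compared between the letters. In letter B, limma called 3 of 7 myeloid, 2 of 5 erythroid, 3 of 5 endothelial and stromal, 1 of 2 B-lineage, 1 of 3 T and NK and 1 of 2 other progenitor markers lower, and 4 of 10 LSK-SLAM gate and 1 of 4 megakaryocyte markers higher. These counts stand beside the 25.6% lower and 10.5% higher over all genes. The summed level of the myeloid markers was 530 to 2291 in old mice of letter A and 262 to 588 in all other mice. *Cd3e* and *Ncr1* were at 0 in at least 1 mouse. The summed level of *Cd34* and *Flt3*, genes of more mature progenitors, was 161 to 287 in young and 94.9 to 132 in old mice, without overlap. Each gene alone did overlap, *Cd34* at 99.5 to 224 in young and 69.4 to 104 in old mice. *Flt3* was at 42.6 to 74.3 in young and 14.2 to 46.6 in old mice, and limma called 0 of these 2 between the ages. The part of these cells in the differences of the RASSF genes was not tested.

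**Figure D3:**
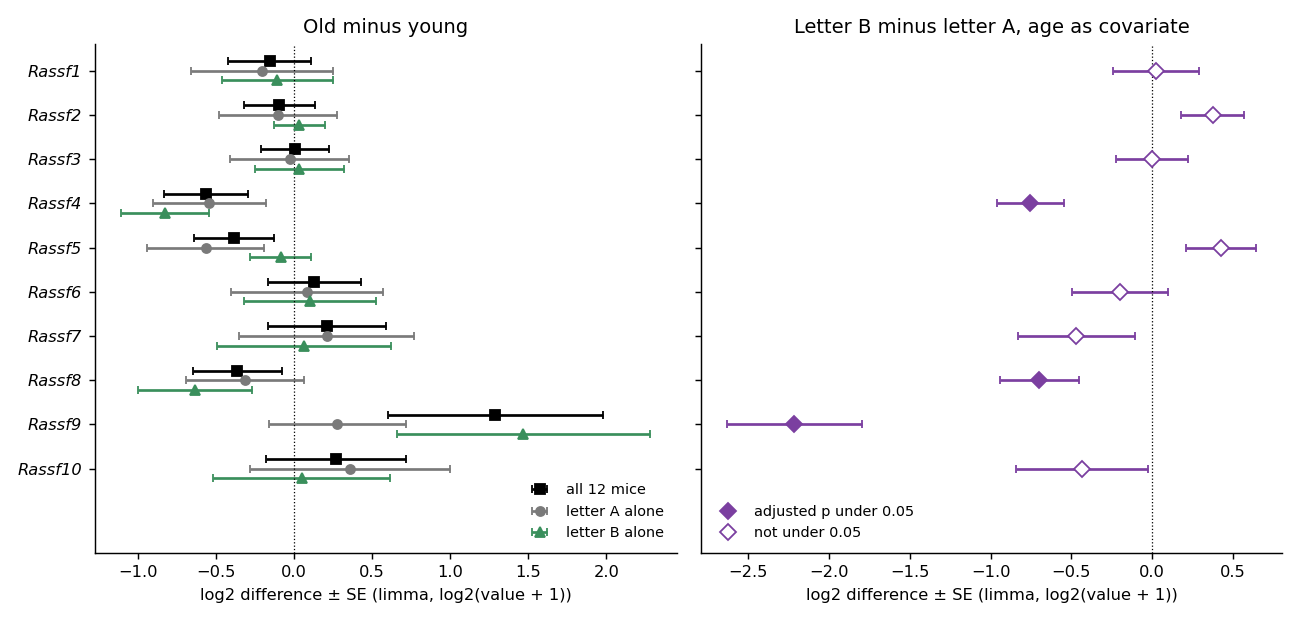
Log2 differences with SE from limma on log2(value + 1) for each RASSF gene, old minus young over all 12 mice and within each letter (left), and letter B minus letter A with age as a covariate (right, filled where the adjusted p is under 0.05). On the left *Rassf1*, *Rassf4*, *Rassf5* and *Rassf8* lie below 0 in all 3 fits, and on the right *Rassf4*, *Rassf8* and *Rassf9* are filled.

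RASSF proteins act through partners, and 4 lists of such genes were examined between the ages and the letters. Of these, 11 of 15 Hippo genes, 10 of 12 Ras and Rap GTPases, 12 of 13 genes between RAP1 and integrins and 7 of 11 other partners were tested. Between old and young mice, limma and edgeR called 0 genes of any list and DESeq2 called 1, *Wwtr1*. The median log2 differences were -0.04, -0.03, -0.11 and -0.10 in this order, against -0.02 over all genes, and 2 of the 40 genes had an unadjusted limma p under 0.05, as did 3.95% of all genes. By level, the leading Hippo genes were *Stk4*, the gene of the kinase MST1, with 534 ± 60.2 in young (SD, n = 5) and 498 ± 172 normalized read counts in old mice (SD, n = 7). The Hippo genes *Mob1a* and *Mob1b* and the kinase gene *Lats1* had old minus young differences of -0.10 (SE 0.18), 0.05 (SE 0.23) and -0.14 (SE 0.22).

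*Wwtr1*, the gene of the Hippo effector TAZ, was singled out after its values were seen. It was 48.2 ± 13.6 in young (SD, n = 5) and 87.8 ± 17.6 normalized read counts in old mice (SD, n = 7), a log2 difference of 0.86 (SE 0.21, limma adjusted p = 0.256). It passed with the letter as a covariate (0.92, limma adjusted p = 0.0445), in DESeq2 (adjusted p = 0.0292) and without old mouse 5 (0.98, limma adjusted p = 0.0333). Outside these settings and edgeR and DESeq2 with the letter, *Wwtr1* did not pass. Examples are edgeR (adjusted p = 0.195), no variance trend (limma adjusted p = 0.523) and the replicate block (limma adjusted p = 0.775).

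Among the GTPases, *Rap1b* had the highest count, with 271 ± 56.0 in young (SD, n = 5) and 240 ± 84.9 in old mice (SD, n = 7). *Nras* and *Rap2b* had old minus young differences of 0.22 (SE 0.20) and -0.01 (SE 0.23). Between RAP1 and integrins, *Tln1*, the gene of talin, which activates integrins, was 929 ± 261 in young (SD, n = 5) and 844 ± 348 in old mice (SD, n = 7). *Fermt3*, the gene of kindlin-3, the exchange factor gene *Rapgef1* and the adaptor gene *Skap2* had differences of -0.15 (SE 0.27), -0.15 (SE 0.20) and -0.08 (SE 0.18). In the last list *Mdm2*, *Ccnd1*, *Map1s* and *Tnfrsf1a* had 0.07 (SE 0.21), 0.44 (SE 0.21), -0.10 (SE 0.27) and -0.10 (SE 0.28). None of these differences passed. Of the partner genes named by level, *Stk4*, *Mob1b* and *Lats1* included, 12 changed sign under an alternative.

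Between the letters, limma called 13 of the 40 partner genes, 7 higher and 6 lower in letter B. Over all genes 36.1% were called, 10.5% higher and 25.6% lower, so that the count lies near this background and nothing is read from it about the pathways. In the Hippo list *Lats1* rose by 0.57 (SE 0.17). Lower in letter B were *Tead4* (-2.13, SE 0.47), *Tead1* (-1.72, SE 0.36) and *Yap1* (-1.32, SE 0.37), which encode the transcription factors at the end of the pathway and their coactivator, and *Wwc1* (-1.002, SE 0.30). Of the GTPases, *Rap1a* (0.87, SE 0.30) and *Rap1b* (0.67, SE 0.20), both bound by RASSF5 as proteins, were higher. Between RAP1 and integrins *Tln1* (0.87, SE 0.25), *Fermt3* (0.76, SE 0.19) and *Rapgef1* (0.51, SE 0.17) were higher, and the integrin gene *Itgal* (-1.48, SE 0.31) and *Skap1* (-0.996, SE 0.31) were lower. *Map1s*, which encodes a microtubule protein that binds RASSF1, was higher (0.68, SE 0.21). Without old mouse 4, *Lats1* (limma adjusted p = 0.0506), *Rap1a* and *Rapgef1* lost their calls. *Rap1a* also did so without young mouse 2, young mouse 3 or old mouse 5 (limma adjusted p of at most 0.0959), without the variance trend, and in edgeR (adjusted p = 0.0680) and DESeq2 (adjusted p = 0.0742). *Rapgef1* also did so without old mouse 2 or old mouse 7 (limma adjusted p of at most 0.0619), and *Skap1* without young mouse 2 (limma adjusted p = 0.0570).

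**Figure D4:**
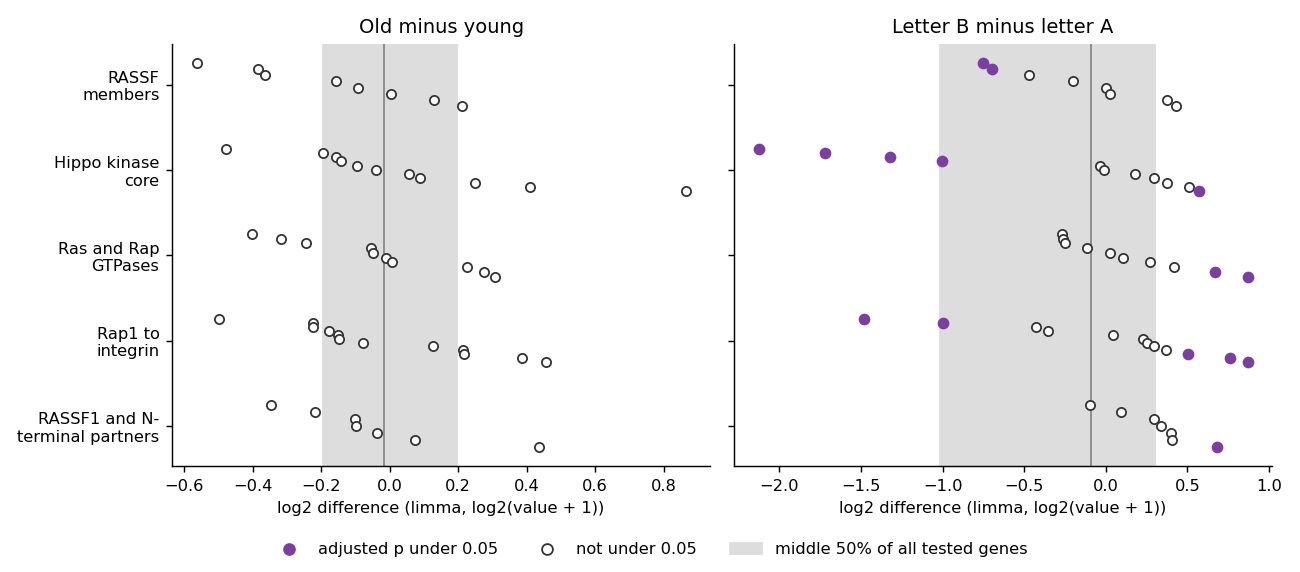
Log2 differences from limma on log2(value + 1) of the 8 RASSF members and of the genes of 4 partner lists, old minus young (left) and letter B minus letter A (right), 1 point per gene, filled where the adjusted p is under 0.05. The grey band holds the middle 50% of all tested genes and the line is their median (-0.02 and -0.09), and no point on the left is filled.

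The genes whose pattern was most like that of a member were taken from all other tested genes by Pearson's r of log2 values over the 12 mice, after removing the mean of each age and letter. For *Rassf4* they were *Ttpal* (r = 0.932), *Caml* (r = 0.927) and *Zfp609* (r = 0.921). For *Rassf5* they were *Ppp4r1* (r = 0.978), *Snx2* (r = 0.971) and *Ciao1* (r = 0.967). Without removing those means, r was 0.510, 0.154 and 0.219 for the 3 genes of *Rassf4*, in the same order. For those of *Rassf5* it was 0.810, 0.951 and 0.888, so that the likeness to *Rassf4* holds mainly within the groups. For *Rassf2* they were *Sec22b*, *Rars* and *Bzw1*, each at r between 0.979 and 0.980. For *Rassf8*, *Ccdc96* (r = 0.902) was first, for *Rassf1* *Rmnd5a* (r = 0.942), for *Rassf3* *Nsrp1* (r = 0.924), for *Rassf6* *Cltb* (r = 0.927) and for *Rassf7* *Tgm4* (r = 0.977). No RASSF gene was among the 3 genes most like another. These values describe the same 12 libraries, whose depth the genes share, and are the highest of a selection over all genes.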

How the data were processed

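RNA-seq of LSK-SLAM cells was analysed from the table of normalized read counts that the authors deposited, a signal in which the authors scaled reads on each gene by library size and a factor for each mouse. Per the labels, FastQC 0.11.8, STAR 2.5.4b, edgeR 3.24.3 and the build mm10 were used; the counting tool and annotation are not given in the sources used here. A table of the authors' own comparison (log2 fold changes, log2 CPM, likelihood ratios, p-values, FDR) was not used. Low values of a mouse are multiples of the smallest step, which stands for 1 read, and with this step 100% of values above 0 gave whole reads within 0.1 read. A gene with 3 reads then has a value between 0.583 and 3.69, depending on the library, and the precision is lowest in the shallowest libraries.

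Groups came from the sample labels, and replicates are different mice. The values being normalized, limma 3.58.1 in R 4.3.3 (lmFit, eBayes with trend) on log2(value + 1) was the main test, over genes whose mean normalized read count was 10 or more, with Benjamini-Hochberg adjustment and calls at an adjusted p under 0.05. Fold changes on this scale understate those of low genes. The procedure was tested on simulated data with known changes. These were drawn with the same spread for all genes and without a letter effect, so they do not show how the test behaves with the letters. edgeR 4.0.16 and DESeq2 1.42.0 on the recovered reads were alternatives, besides other pseudocounts and minimum means, no trend, median-ratio rescaling, the label letter as a covariate or each letter alone, a replicate block and leaving out each mouse. Lengths and overlaps came from GENCODE vM21 (GRCm38), which held 18745 of the 18762 identifiers, and promoters from RefSeq (GRCm38.p6). Other steps used Python 3.11.15.

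The members and gene lists were chosen with earlier results of these data known. All members were named, and of each partner list the genes called and otherwise up to 4 with the highest mean level, with *Wwtr1* as an exception. A gene that this rule names is not reported here. For each member the 3 genes most alike were taken.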

Additional observations from a re-analysis of the deposited data

How the results depend on the processing

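No RASSF gene was called between old and young mice under any alternative, and *Rassf4* kept its direction between the ages and its call between the letters under all of them. The number of genes called between the ages, 13, was 2 without the variance trend, 37 with the label letter as a covariate, 1 in letter A alone, 100 in letter B alone and 58 in DESeq2, and 3 to 32 without single mice, the highest without old mouse 5 and 3 without young mouse 3 or 4 or old mouse 1, 2 or 3. It was 6 without young mouse 1, 4 without young mouse 5 and 7 without old mouse 6. In settings chosen after seeing the data, edgeR and DESeq2 with the letter called 43 and 80. Fewer mice entered the fits of a single letter, and the causes of the other shifts were not tested. Whether the replicate numbers pair the mice is not settled. Deviations from the age means correlated between -0.559 and 0.615 for mice with the same number, and 2 of 5 young mice were closest to their own number. Pairs of unlike letter were at -0.559 and 0.0437 and pairs of the same letter at 0.180, 0.402 and 0.615. This check therefore cannot tell a pairing from the letter. With the replicate block over replicates 1 to 5, 19 genes were called, against 8 for the same mice without it, a setting also chosen after seeing the data. Neither called a RASSF gene.

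Of the partner genes, 0 were called between the ages, and 1 with the label letter, in DESeq2, and in edgeR and DESeq2 with the letter, and 0 to 1 without single mice, the 1 without old mouse 5. Between the letters, 4462 genes were called, 2232 at a minimum mean of 20, where fewer genes were tested, and 2943 to 5003 without single mice, the lowest without young mouse 2. Of the RASSF genes, 1 to 2 were called between the letters without single mice. The letter differences of *Rassf1* (-0.116 to 0.146 without single mice) and *Rassf3* (-0.103 to 0.118, -0.0141 in edgeR and -0.0157 in DESeq2) lay around 0 and changed sign.

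Some old minus young differences of partner genes changed sign. In letter B alone they were 0.155 for *Stk4*, 0.128 for *Lats1*, 0.0190 for *Rap1b*, 0.0917 for *Tln1*, 0.178 for *Fermt3*, 0.0893 for *Rapgef1*, 0.123 for *Skap2*, 0.190 for *Map1s* and 0.446 for *Tnfrsf1a*, and in letter A alone 0.191 for *Rap2b*. With the replicate block, and for the same mice without it, they were -0.0579 for *Mob1b*, 0.00332 for *Rap2b*, 0.0580 for *Fermt3*, 0.00612 for *Rapgef1*, 0.146 for *Map1s* and 0.175 for *Tnfrsf1a*. With the letter as a covariate *Map1s* was at 0.0149. *Rap2b* was at 0.00610 in edgeR and 0.00427 in DESeq2, and *Tnfrsf1a* at 0.0322 and 0.0271. With the letter in edgeR and DESeq2, *Fermt3* was at 0.00846 and 0.0105, *Map1s* at 0.0521 and 0.0511, and *Tnfrsf1a* at 0.0446 and 0.0334. Without single mice the ranges were -0.274 to 0.0145 for *Stk4*, -0.0427 to 0.195 for *Mob1b*, -0.1501 to 0.0703 for *Rap2b*, -0.260 to 0.00329 for *Fermt3*, -0.138 to 0.0188 for *Skap2*, -0.0368 to 0.213 for *Mdm2*, -0.236 to 0.0920 for *Map1s* and -0.209 to 0.131 for *Tnfrsf1a*. The causes were not tested. Depth limits the low members most, since *Rassf7* rests on 17 to 57 reads per mouse. Of 20 groups of mice examined for a value standing apart by Dixon's criterion, 0 had one.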
